A study of Mus musculus with 4 samples.

Results

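The haem synthesis enzymes described here are the 8 genes Alas1, Alas2, Alad, Uros, Urod, Cpox, Ppox and Fech. They were taken by symbol from the 31053 features of a single-cell RNA-sequencing study of mouse bone marrow with 4 libraries. Their RNA was followed through erythroid cells split by the globin share of each cell's unique molecular identifiers (UMIs, each a tag for 1 captured RNA molecule). Cells under 5% globin were called early, from 5% to under 40% mid, and from 40% late. All other cells of the same libraries served as comparison. The 4 libraries came from C57Bl/6JCrl mice with floxed Vegfc alleles, and all mice carried these alleles. Control mice were Vegfc flox/flox, and Vegfc-deleted mice were RosaCreERT2;Vegfc flox/flox, in which the tamoxifen-inducible Cre sits at a locus active in most cell types. The treatment text gives both genotypes 5 tamoxifen doses at 7 to 8 weeks of age, although another sentence of it names only samples 1 to 3. In the irradiated groups, 4 Gy of total-body irradiation followed 2 weeks later and cells were taken 7 days after it. A non-irradiated library pooled 3 mice and an irradiated one pooled 2, so that each group is 1 library of pooled animals. Cells had been sorted as DAPI-, Lin-, CD45- and Ter119-. Ter119 marks maturing red cells, so the mid and late cells seen here are those that passed this gate.

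Haem is built along a single chain of enzymes that starts in the mitochondrion, passes through the cytosol and ends in the mitochondrion again. Alas1 and Alas2 are alternative forms of the first enzyme, which joins glycine and succinyl-CoA to aminolevulinate: Alas1 serves most tissues and Alas2 is the form of red cell precursors. Alad, Uros and Urod act on the way to the porphyrin ring in the cytosol, Cpox and Ppox oxidise it at the mitochondrion, and Fech inserts iron. Red cell precursors make most of the body's haem, for haemoglobin, and erythroid factors such as Gata1 bind at several genes of the pathway.

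The windows before the gene starts are shown for members that were higher in mid than in early cells and hold a GATA word there. RefSeq windows (GRCm38.p6, 250 bases before the start) were matched for 7 of the 8 members, all but Fech, in 10 windows. The GATA words searched were AGATAA together with AGATAG as well as TGATAA together with TGATAG, on either strand, and were found in 3 of these 10 windows, against 26.5% of 32851 windows of all genes. The word CACCC on either strand was found in 5 of the 10, against 52.0% of all windows. The members with a GATA word were Alas2, Cpox and Uros. Each window below is printed on the gene's strand up to the first base of any annotated exon of that gene, and capitals mark the GATA words, which read reversed here. In Cpox 2 such words overlap.
Alas2: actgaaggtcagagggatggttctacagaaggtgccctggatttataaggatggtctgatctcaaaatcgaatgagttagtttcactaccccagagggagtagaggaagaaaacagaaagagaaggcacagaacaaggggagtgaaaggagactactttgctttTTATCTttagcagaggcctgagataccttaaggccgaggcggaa
Cpox: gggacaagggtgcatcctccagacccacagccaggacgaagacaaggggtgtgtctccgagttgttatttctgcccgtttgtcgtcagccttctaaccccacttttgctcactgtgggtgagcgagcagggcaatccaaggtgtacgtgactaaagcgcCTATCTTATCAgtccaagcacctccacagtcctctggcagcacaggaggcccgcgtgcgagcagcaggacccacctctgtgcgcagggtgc
Uros: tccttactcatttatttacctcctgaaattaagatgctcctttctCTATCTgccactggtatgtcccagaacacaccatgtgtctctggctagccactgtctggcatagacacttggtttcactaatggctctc
The Alas2 window lies at chrX:150547167-150547374 on the plus strand, upstream of the gene at chrX:150547375-150570638. The Cpox window, chr16:58669958-58670207 on the plus strand, lies upstream of its gene at chr16:58670292-58717636. The Uros window, chr7:133702617-133702750 on the minus strand, precedes an internal start and is intronic in the gene at chr7:133686243-133710072. The other members with a position here are Ppox (chr1:171275990-171281186), Alad (chr4:62509169-62519918), Urod (chr4:116989965-116994413) and Alas1 (chr9:106233455-106248654), all on the minus strand. A match of these letters is a description of the window and was not tied to binding in these cells.

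The filters kept 3837 to 5211 cells per library, out of 5134 to 7737 deposited barcodes with 54462123 to 77284922 UMIs. Clusters were named from fixed marker genes with all members and globins left out, and 7 of 34 clusters were erythroid, each with UMIs of all 15 erythroid markers. Every list of 4 values gives control and then Vegfc-deleted mice without irradiation, followed by the same pair after it. There were 161, 403, 46 and 117 early cells in this order. Of these, 67, 159, 24 and 81 lay in cluster 21 and 74, 134, 22 and 36 in cluster 17. The median depths of these clusters were 7.87 and 0.282 times those of their libraries. Summed levels of irradiated early cells therefore rest mostly on cluster 21. For example, it gave 830 of 868 Cpox UMIs in control and 3134 of 3186 in Vegfc-deleted mice. Early values per cell average over both clusters. Mid cells numbered 880, 850, 101 and 63, and late cells 1051, 989, 396 and 238. Late cells were shallow: their median UMIs were 6195, 5991, 8849 and 7474.5, against 26689, 33911, 30819 and 57726 in early cells. Vegfc itself was found with 1915, 117, 888 and 36 UMIs, so both Vegfc-deleted libraries match their labels, although no source used here says which part of the gene is deleted. Any 2 libraries shared 13 to 117 barcodes, and 3 to 21 among the kept cells. With 1 library per group no test between groups was possible. Intervals given are 95% and cover counting error only, and a gene is called higher or lower where the difference is at least 1.5-fold with at least 30 UMIs on 1 side.

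The level of a gene is its UMIs per 1000000 non-globin UMIs of the cells, unless another scale is named. In erythroid cells as a whole, 7 of the 8 members were higher than in the other cells of the same library in all 4 libraries, and Alas1 was lower in all 4. Of 12840 genes measured in that comparison, 15.4% were higher and 40.6% lower. Neither the globin limits, the marker genes nor the clustering used the members. The clusters were still formed from 1995 variable genes of the same cells, so these contrasts describe the erythroid clusters and test nothing. The smallest of the folds among the 7 members was that of Ppox in the irradiated Vegfc-deleted library, 10.4-fold. In bulk sums of this kind, a lower level per non-globin UMI and a higher total of other RNA cannot be told apart.

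**Figure D1:**
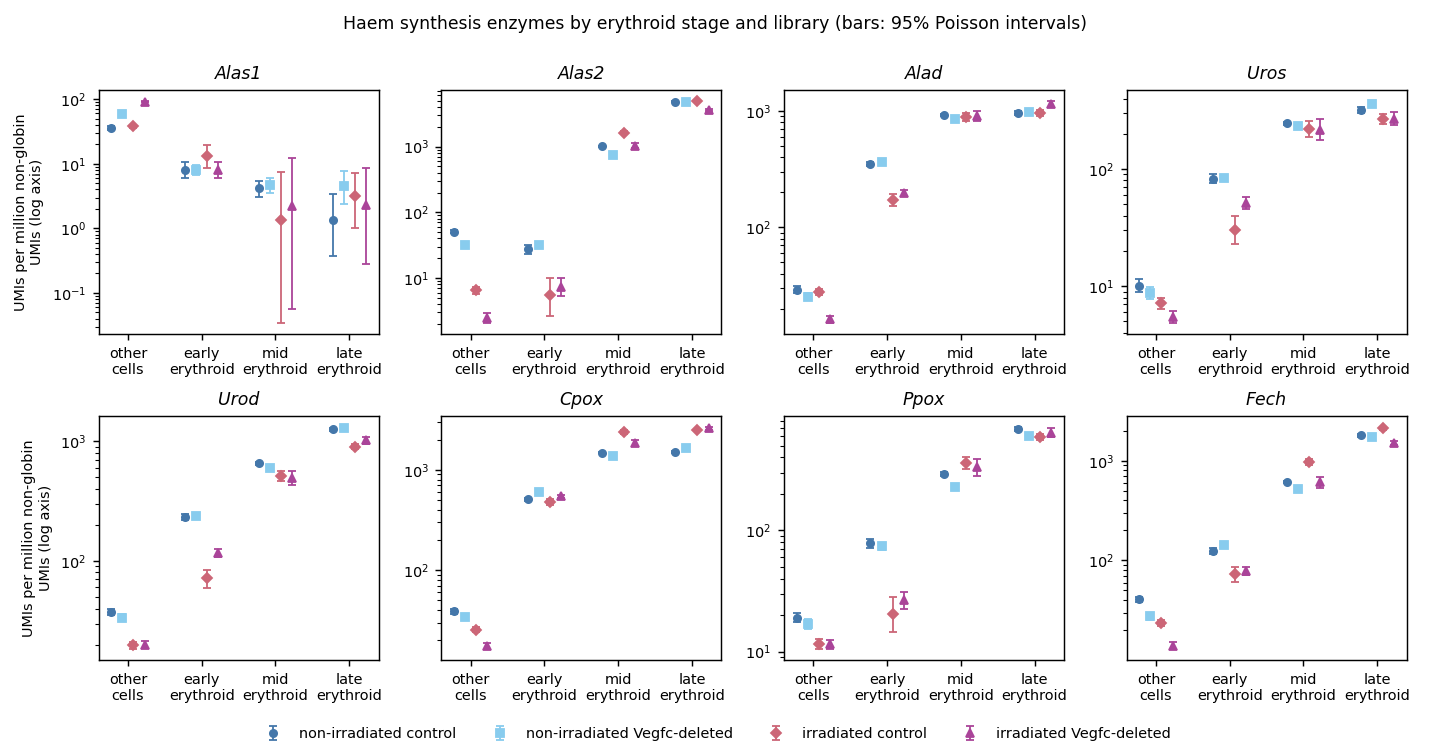
Level of each of the 8 genes (UMIs per 1000000 non-globin UMIs, log axis) in other cells and in early, mid and late erythroid cells, 1 point per library with its 95% Poisson interval. From early to mid, 7 genes are higher in all 4 libraries, and Alas1 is highest in the other cells.

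The step from Alas1 to Alas2 was the widest difference between stages. Alas2 stood at 27.6, 31.6, 5.53 and 7.39 in early cells, at 1007, 741, 1633 and 1039.7 in mid cells, and at 4821, 4708, 4886 and 3608 in late cells. No early library reached the lowest mid library, and no mid library the lowest late one. The other cells of these libraries, shallower at median UMIs of 7537 to 10024.5, held Alas2 at 50.3, 31.4, 6.51 and 2.49. The pooled early level was below that of other cells in the non-irradiated control library and above it in the irradiated Vegfc-deleted one, and the intervals of the remaining pair overlapped. After each cell was thinned to 1000 non-globin UMIs, 6.08%, 4.72%, 5.13% and 0% of early cells had an Alas2 UMI, against 6.05%, 3.5%, 0.836% and 0.42% of other cells, with overlapping intervals in each library. Without thinning, early cells held more Alas2 UMIs per cell than other cells in all 4 libraries, 0.975, 1.14, 0.217 and 0.368 against 0.448, 0.306, 0.0835 and 0.0337. The early stage was not uniform: under 1% globin the Alas2 level was 8.65 and 6.25 in the non-irradiated libraries, and from 2% to 5% it was 118 and 108. The irradiated early values rest on 10 and 43 UMIs. The mid-over-early folds were 36.5, 23.5, 295.5 and 140.6, on pooled early levels that were not shown to be above those of other cells in 3 of the libraries. Late over mid, Alas2 was 4.79-fold, 6.35-fold, 2.99-fold and 3.47-fold higher.

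Alas1, the housekeeping form, differed in the opposite direction, on few molecules. Its UMIs numbered 46, 118, 24 and 47 in early cells, 51, 54, 1 and 1 in mid cells, and 4, 13, 5 and 2 in late cells. As levels these were 8.08, 8.1, 13.3 and 8.08 in early cells, 4.14, 4.61, 1.35 and 2.24 in mid cells, and 1.35, 4.46, 3.12 and 2.34 in late cells. The mid libraries all lie below the early ones, while mid and late overlap. The share of Alas2 among all Alas UMIs was 77.3%, 79.6%, 29.4% and 47.8% in early cells. It was 99.6%, 99.4%, 99.9% and 99.8% in mid cells.

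The cytosolic enzymes were already well above other cells at the early stage. Alad, which joins aminolevulinate into porphobilinogen, stood at 351, 361, 172 and 197 in early cells and at 922, 846, 882 and 903 in mid cells. It was 963, 968, 956 and 1145 in late cells, within 1.27-fold of the mid level in every library. Uros, which closes the ring, went from 83.0, 84.7, 30.4 and 51.2 in early cells to 246, 233, 221 and 217 in mid cells. Late Uros levels were 320, 361, 268 and 269.9, past 1.5-fold over mid only in the non-irradiated Vegfc-deleted library. Urod, which trims the side chains of the ring, stood at 232, 236, 71.3 and 116 in early cells, 651, 593, 513 and 495 in mid cells, and 1251, 1280, 901 and 1018 in late cells. For Urod the 3 stages did not overlap between any libraries.

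Of the enzymes at the mitochondrion, Ppox and Fech were again higher in late cells, and Cpox was not past 1.5-fold. Cpox, which makes protoporphyrinogen, stood at 508, 607, 479.7 and 548 in early cells. It was 1476, 1381, 2384 and 1859.8 in mid cells and 1497, 1646, 2490.3 and 2579.7 in late cells, with late-over-mid folds of 1.01 to 1.39. Ppox, which oxidises protoporphyrinogen to protoporphyrin, went from 78.1, 73.8, 20.4 and 26.5 through 292, 227, 361 and 332 to 688, 607, 590.2 and 641. Fech, which sets the iron into protoporphyrin, went from 125, 142, 72.4 and 78.8 through 607, 522, 973 and 607 to 1798, 1737, 2129.9 and 1512. For both Ppox and Fech the stages did not overlap between any libraries.

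By count, 7 of the 7 members with enough UMIs in all 4 libraries were higher in mid than in early cells and 0 lower. Of 6225 genes tested in this way, 14.9% were higher and 29.5% lower. In late over mid cells, 4 of 7 were higher in all 4 libraries, Alas2, Urod, Ppox and Fech, and 0 lower, against 14.4% higher and 16.4% lower of 3295 genes. The median log2 ratio of the members was 1.55, 1.39, 2.86 and 2.14 for mid over early, while that of all genes was -0.23, -0.27, -0.49 and -0.42. For late over mid the members' medians were 0.66, 0.87, 0.71 and 0.95, and those of all genes -0.55, -0.56, -0.17 and -0.02. The stages are cut by globin, itself an erythroid product, so genes that follow globin are higher in later stages by the way the cells were ordered.

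These levels are relative to the other RNA in the cell, of which late cells held less. The mean number of non-globin UMIs per cell was 35378, 36158, 39333 and 49706 in early cells and 2822, 2947, 4043 and 3596 in late cells. Counted per cell, 1 of the 7 members, Alas2, was higher in mid than early cells in all 4 libraries, as were 0.851% of all genes. In late over mid cells 0 members were higher and 1, Alad, was lower in all 4 libraries, against 1.55% and 63.5% of all genes. Alas2 UMIs per cell were 14.1, 10.2, 11.95 and 7.37 in mid cells, and 13.6, 13.9, 19.8 and 12.97 in late cells. Alad UMIs per cell were 12.4, 13.04, 6.78 and 9.79 in early cells and 12.9, 11.7, 6.46 and 6.4 in mid cells. In late cells they were 2.72, 2.85, 3.87 and 4.12, below the mid value in each library. Cpox UMIs per cell were 20.7, 19.0, 17.4 and 13.2 in mid cells and 4.23, 4.85, 10.1 and 9.28 in late cells. Fech UMIs per cell were 8.5, 7.18, 7.12 and 4.3 in mid cells and 5.07, 5.12, 8.61 and 5.44 in late cells. With all UMIs, globin included, as the denominator, 1 member was higher in late than mid cells in all 4 libraries, again Alas2, and 3.61% of all genes were.

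Finer globin ranges showed that the members reach their highest level at different points. In the non-irradiated libraries all 9 ranges held at least 20 cells, and 4 did in each irradiated library. In the non-irradiated libraries Alas2 was highest in the last range, 80% globin or more, at 11448 and 10380.0. Fech (3334 and 3159) and Urod (2031 and 2135) were highest there too. Alad and Cpox were highest at 40% to 60% globin in all 4 libraries. Alad was 1242, 1209, 1065 and 1226 there, and 154 and 209.7 in the last range of the non-irradiated libraries. Cpox was 1923, 2057, 2871 and 2764 at 40% to 60% and 362 and 610.1 in that last range. Uros and Ppox peaked between 40% and 80%. These positions hold for the level. On the per-cell scale of the non-irradiated libraries Alas2 was again highest in the last range, with 24.4 and 25.4 UMIs per cell, but the other members were highest earlier. Fech was highest at 5% to 10% globin (8.55 and 9.26 UMIs per cell), and Urod at 0% to 1% in control (12.51) and 5% to 10% in Vegfc-deleted mice (12.53). Alad and Cpox were also highest per cell in those ranges, and Alad was 0.328 and 0.513 UMIs per cell in the last range. In the irradiated libraries Fech was highest per cell at 60% to 80% globin (9.01 and 5.33 UMIs), the last range there with at least 20 cells. Alad and Cpox were highest per cell at 20% to 40% in irradiated control and 0% to 1% in irradiated Vegfc-deleted mice.

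**Figure D2:**
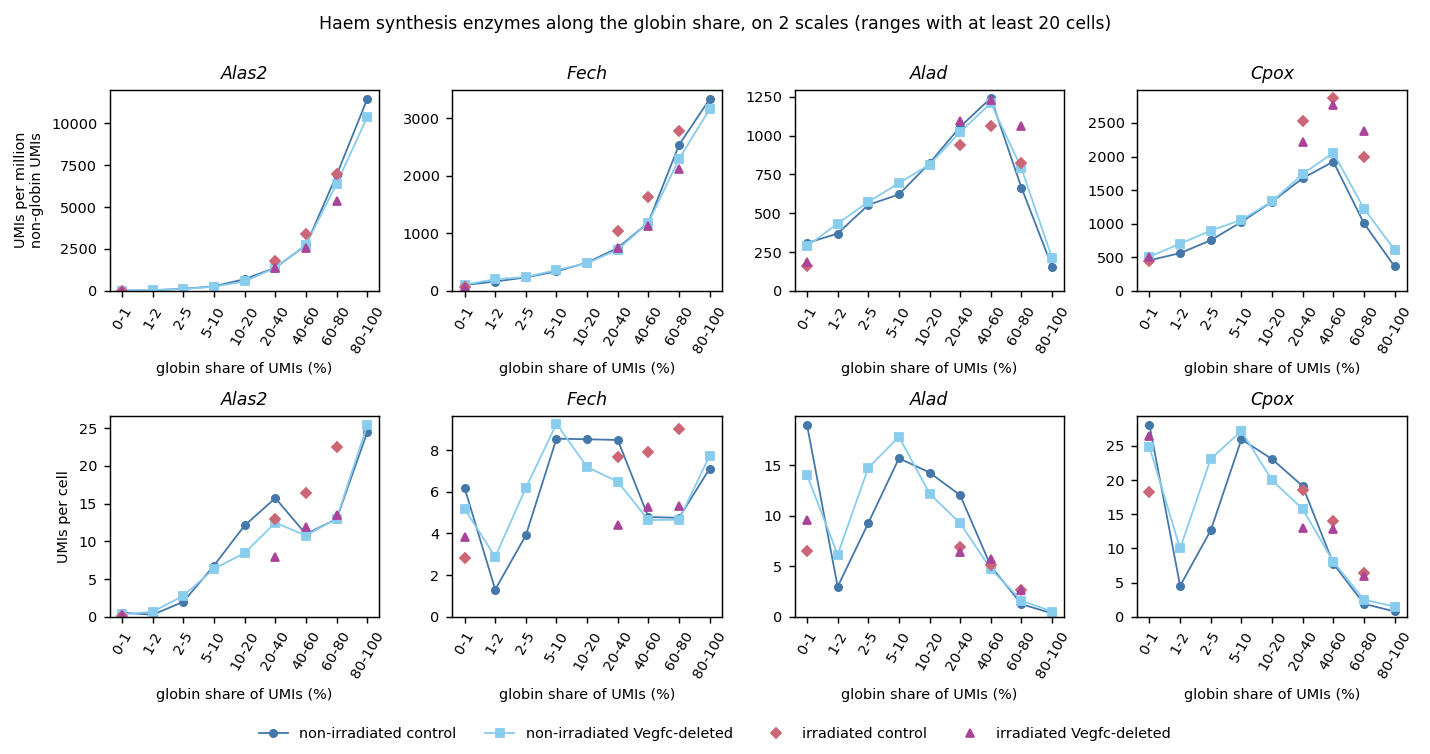
Alas2, Fech, Alad and Cpox along the globin share of UMIs, as UMIs per 1000000 non-globin UMIs (upper row) and as UMIs per cell (lower row), 1 symbol per library and range with at least 20 cells. On the upper scale Alas2 and Fech are highest at 80% globin or more in the non-irradiated libraries and at 60% to 80%, the last range plotted, in the irradiated ones, and Alad and Cpox peak at 40% to 60%.

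Part of the genes that supply the pathway differed between stages as its enzymes did. The shares of all genes stated above are the background of the list counts between stages that follow. They were 14.9% higher and 29.5% lower for mid over early, and 14.4% and 16.4% for late over mid. Of 14 pathway partners tested, 8 were higher and 2 lower in mid than in early cells, with a median log2 ratio of 1.16 against -0.31 over all genes. Slc25a37, the mitochondrial iron importer, was 72.3, 93.0, 41.5 and 64.0 in early cells and 1183, 1009, 2651 and 2261 in mid cells. Fam210b and Abcb10, both mitochondrial proteins needed for haem synthesis, were also among the highest, with log2 ratios of 2.06 to 4.07 and 2.01 to 4.07. Flvcr1, a haem exporter, was lower, from 13.9, 12.01, 26.0 and 20.3 to 2.27, 2.56, 4.06 and 8.96, on 3 and 4 UMIs in the irradiated mid cells. Pgrmc1, a haem-binding membrane protein, was lower as well, with log2 ratios of -0.96 to -1.40. In late over mid cells 3 of 10 partners were higher and 1 lower. Slc25a39 and Slc25a37 were among the higher ones. Tmem14c, which passes protoporphyrinogen into the mitochondrion, was the lower one, from 2737, 2644, 1421 and 1768 to 1051, 1092, 611 and 1042.

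Of 10 genes of iron uptake and storage, 4 were higher and 1 lower in mid than in early cells. Tfrc, the transferrin receptor, went from 307, 409, 423 and 589.97 to 1345, 1238, 3878 and 3029. Ncoa4, which delivers ferritin for breakdown, and Fth1, the ferritin heavy chain, were also higher. Aco1, an iron-sensing regulator of messenger RNA, was lower, with log2 ratios of -0.79 to -1.67. In late over mid cells 3 of 8 were higher and 0 lower, led by Ncoa4, from 86.8, 74.0, 146 and 78.4 to 568, 574, 502 and 401. Of 12 genes of iron-sulphur cluster assembly, on which Fech depends, 2 were higher and 4 lower in mid than in early cells, shares near those of all genes. Isca1 and Glrx5 were higher, whereas the ferredoxin Fdx1, the chaperone Hspa9 and the cluster carrier Nfu1 were among the lower ones, Fdx1 with log2 ratios of -2.99 to -4.31. Hscb, a co-chaperone of this assembly, was higher in late than mid cells, from 35.8, 33.8, 41.9 and 24.6 to 243, 246, 156 and 118.

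Of 5 genes of haem sensing and breakdown tested, 3 were higher and 1 lower in mid than in early cells. Eif2ak1, the kinase that slows protein synthesis when haem is short, went from 73.9, 85.6, 48.6 and 59.3 through 293, 239.8, 441 and 365 to 1033, 995, 1144 and 870.4 in late cells. Blvrb and the haem-binding repressor Bach1 were the other 2 higher genes, and Hmox2 was the lower one. Among 9 erythroid transcription factors, 4 were higher and 1 lower in mid than early cells. Nfe2 led with log2 ratios of 2.24 to 2.71, and Bcl11a, a globin regulator, was lower with ratios of -0.74 to -1.93.

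In early cells, 6 of the 8 members were lower in the irradiated than in the non-irradiated library of both genotypes, and 0 were higher. Of 7940 genes, 7.19% were lower and 10.9% higher in this comparison. The 6 were Alas2, Alad, Uros, Urod, Ppox and Fech. The log2 ratios of control and Vegfc-deleted mice were -1.02 (-1.20 to -0.85) and -0.87 (-0.97 to -0.78) for Alad, and -1.70 (-1.97 to -1.44) and -1.02 (-1.14 to -0.90) for Urod. They were -1.93 and -1.48 for Ppox, -1.45 and -0.72 for Uros, and -0.78 and -0.85 for Fech. Cpox stayed apart from these, with -0.08 (-0.19 to 0.03) and -0.15 (-0.21 to -0.09). Alas2 had -2.32 and -2.09. In the pooled other cells of the same libraries the Alas2 log2 ratios were -2.95 and -3.65. The part of background RNA in either was not tested.

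The early irradiated cells also held less globin. Their median globin share was 0.208% and 0.193%, against 1.19% and 0.907% in the non-irradiated libraries, and all 6 genes of a list of late erythroid markers were lower in both genotypes. Slc4a1, the anion exchanger of the red cell membrane, was 97.6, 149, 25.4 and 20.3. Of 3 genes tested from a list of early progenitor markers, 1 was higher in both genotypes and 0 lower. The higher one was Gata2, a factor of early progenitors, at 12.3, 7.89, 141 and 52.6. Among cells under 1% globin, 5 members were still lower in both genotypes, all of the 6 but Fech, against 5.88% of all genes. Within the single cluster that held most early irradiated cells, cluster 21 with 67, 159, 24 and 81 early cells, 2 were lower in both genotypes, Urod and Ppox, against 5.57% of all genes. Urod was 215, 191, 69.2 and 116 there, and Ppox 70.8, 59.3, 20.5 and 27.4. Alas2 had log2 ratios of -1.66 in control and 0.11 (-0.48 to 0.67) in Vegfc-deleted mice there, the second on 43 and 70 UMIs. Another erythroid cluster, 10, held 17 and 110 of the non-irradiated early cells and 0 of the irradiated ones. Gata2 differed within that cluster too, at 14.3, 11.1, 147 and 53.5. Kit and Myb of the same list did not follow it there. Their log2 ratios in control and Vegfc-deleted mice were -0.37 and -1.35 for Kit and 0.76 and -0.16 for Myb. The part of these differences in globin and stage markers in the members' levels was not tested. Counted per cell, 2 members were lower in both genotypes, Alas2 and Ppox, against 3.45% of all genes.

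**Figure D3:**
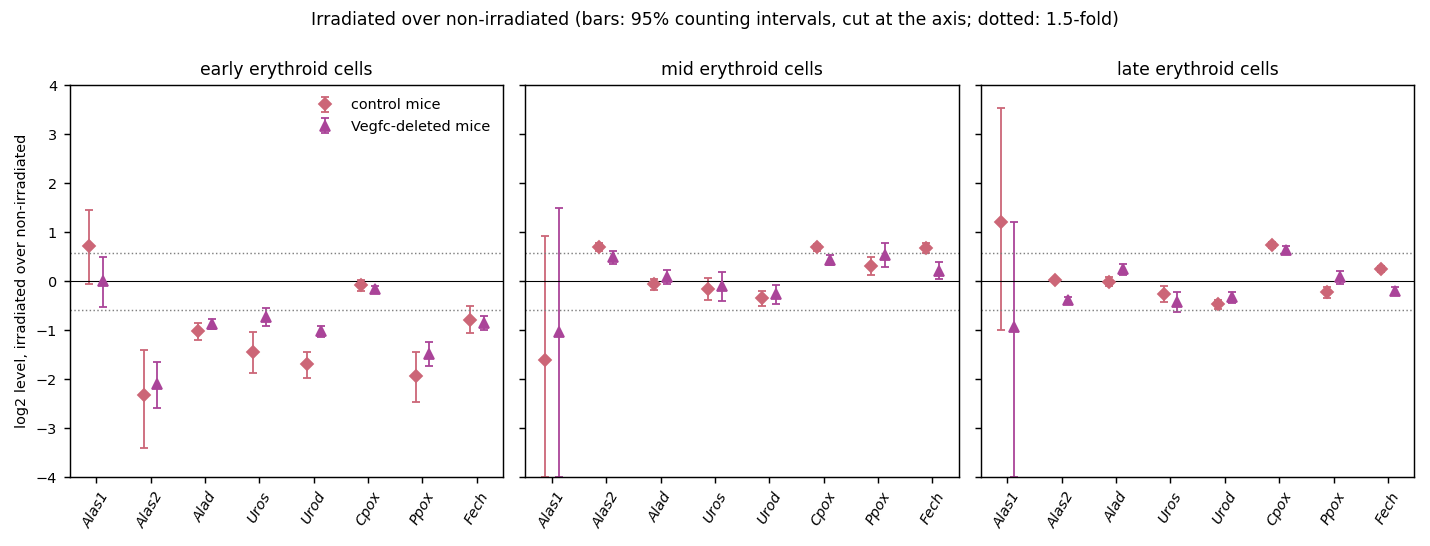
Log2 ratio of each gene's level, irradiated over non-irradiated, in early, mid and late erythroid cells of control and Vegfc-deleted mice, with 95% counting intervals and dotted lines at 1.5-fold. In early cells 6 genes lie below the lower line in both genotypes. In late cells Cpox alone lies above the upper line in both.

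In mid cells 1 member, Alas1, was lower in both genotypes and 0 were higher, against 9.17% lower and 9.69% higher of 7801 genes. The Alas1 call rests on 1 UMI in each irradiated library, with intervals of -6.94 to 0.93 and -6.37 to 1.5 on the log2 scale that span no difference. In control mice taken alone, Alas2, Cpox and Fech were 1.62-fold, 1.62-fold and 1.60-fold higher in irradiated mid cells, where 23.8% of 7944 genes were higher. In Vegfc-deleted mice these folds were 1.40, 1.35 and 1.16, below the limit, where 18.5% of genes were higher. The irradiated mid cells were few, 101 and 63, and 87 and 46 of them lay in cluster 8, which held 4 and 3 of the non-irradiated mid cells. Their median UMIs were 9347 and 7615, against 21206 and 18379.5. Counted per cell, 4 of 8 members were lower in both genotypes, Alas1, Alad, Uros and Urod, a share near the 55.8% of all genes, and the irradiated mid cells held fewer UMIs. The signs for Alas2, Cpox and Fech in control mice turned, to -0.24, -0.24 and -0.26. In Vegfc-deleted mice these 3 genes turned as well. Their UMIs per cell without and with irradiation were 10.2 and 7.37 for Alas2, 19.0 and 13.2 for Cpox, and 7.18 and 4.3 for Fech. Ppox turned in both genotypes, with 4.09 and 2.64 in control and 3.13 and 2.35 in Vegfc-deleted mice.

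In late cells Cpox was higher after irradiation in both genotypes, the only 1 of 7 tested, with 0 lower, against 9.7% higher and 9.28% lower of 4970 genes. Its log2 ratios were 0.73 (0.67 to 0.80) and 0.65 (0.57 to 0.72). With the same weights for the globin ranges of both libraries the ratios were 0.67 and 0.57, the second just under 1.5-fold. With trimmed-mean scaling they were 0.51 and 0.41, so that neither setting left a call although the direction was kept. Within cluster 2 the difference was not seen: 0 members were higher, against 8.6% of all genes. In cluster 2, with 606, 582, 105 and 45 late cells, Cpox was 829, 949.6, 818 and 1099. Elsewhere the late irradiated cells lay mostly in cluster 8, with 278 and 180 of them against 2 and 2 non-irradiated ones. Counted per cell, Cpox was higher by 1.25 and 0.94 on the log2 scale. Urod was below 0 in both genotypes without reaching 1.5-fold, at -0.47 (-0.56 to -0.39) and -0.33 (-0.44 to -0.22).

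Among the supply genes, Tfrc was higher in irradiated mid cells (log2 1.53 and 1.29) and late cells (0.74 and 0.59) of both genotypes. Tfr2, which senses transferrin, was higher as well, with 1.63 and 1.25 in mid and 1.37 and 1.43 in late cells. Slc25a37 (1.16 and 1.16) and Abcb10 (0.81 and 0.66) were higher in irradiated mid cells. Per cell Abcb10 was lower there, with 6288 UMIs in 880 non-irradiated and 659 in 101 irradiated cells of controls. Vegfc-deleted mice had 6487 in 850 and 392 in 63, also lower per cell. Trimmed-mean scaling shifted mid ratios by -0.27 and -0.22 and late ones by -0.23 and -0.24. These shifts take Abcb10 in mid and Tfrc in late cells under 1.5-fold. Snx3, which recycles the transferrin receptor, was lower in mid (-1.08 and -0.85) and late cells (-0.78 and -0.73). Iscu, the scaffold of iron-sulphur clusters, was lower in late cells (-1.28 and -1.52). Of 14 pathway partners in early irradiated cells, 4 were lower and 1 was higher, Flvcr1, against 7.19% lower and 10.9% higher of all genes. Fam210b (-1.18 and -0.98) and Abcb10 (-0.93 and -1.28) were among the lower ones.

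Between Vegfc-deleted and control mice, 0 members were higher and 0 lower with and without irradiation at the early, mid or late stage. Where erythroid cells were taken by markers alone, without clusters, 4 members were higher in early cells of Vegfc-deleted mice in both contrasts, Alad (0.85 and 0.76), Uros (0.83 and 1.23), Urod (0.77 and 1.13) and Cpox (1.07 and 0.86). The share of all genes was not counted in that setting, so whether these 4 stand out from it was not tested. With cells taken by cluster, genes past the limit in both contrasts were few: 0.845% higher and 0.621% lower of 8048 genes in early cells, 0.296% and 0.798% of 3382 in mid cells, and 0.641% and 0.831% of 4212 in late cells. Without irradiation the members' log2 ratios, Alas1 aside, lay between -0.08 and 0.26 in early cells, between -0.44 and -0.08 in mid cells, and between -0.18 and 0.17 in late cells. Alas2 in mid cells was lower in both contrasts, at -0.44 (-0.48 to -0.40) and -0.65 (-0.81 to -0.50), of which only the irradiated one passed 1.5-fold. Fech in irradiated mid cells was -0.68 (-0.89 to -0.48), and Uros and Urod in irradiated early cells were 0.75 (0.33 to 1.20) and 0.71 (0.43 to 0.99). In early cells of Vegfc-deleted mice, 1 of 3 early progenitor markers tested was lower in both contrasts and 0 were higher. It was Gata2, at -0.64 without and -1.43 with irradiation. Of 6 late erythroid markers 1 was higher, Epb42, a red cell membrane protein (0.67 and 1.55), and 0 were lower. The median log2 ratio of these 6 was 0.20. The part of Gata2 and Epb42 in the members' values was not tested. The median globin share of non-irradiated mid cells was 24.5% in control and 21.6% in Vegfc-deleted mice. RNA of neutrophil granules was higher in the erythroid cells of both Vegfc-deleted libraries: late cells held S100a8 at 123, 409.7, 114 and 592. All 5 genes of that list were higher with and without irradiation in late cells, and their part in the members' values was not tested.

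Outside the erythroid clusters, Alas1 was the synthase that stood out. Its level was highest in the neutrophil lineage in all 4 libraries, at 115, 153, 129.9 and 172, and these intervals did not overlap those of the class next in order. That class was endothelial cells without irradiation in controls (36.7), a group of LepR stromal cells in the non-irradiated Vegfc-deleted library (34.9), and monocytes or macrophages after irradiation (87.9 and 53.7). Below the first place, neighbours in the order mostly overlapped. In erythroid cells Alas1 was 4.81, 6.34, 7.23 and 7.02. Neutrophil lineage cells numbered 171, 563, 157 and 1223, and like all cells here they are those that passed the Lin- and CD45- sort. Within the neutrophil lineage, a cluster led by Elane, Prtn3 and Mpo held the highest Alas1 level, 159.5, 237 and 291 in the 3 libraries with at least 20 of its cells. Mpo, myeloperoxidase, is a haem enzyme of neutrophil granules. The cluster led by Ngp, Camp and Ltf stood at 84.0, 104, 147 and 149. The cluster led by Retnlg, Cxcl2 and Il1b stood at 45.5, 34.7 and 78.3 in the 3 libraries that reached 20 cells. A cluster led by Gm5483, Stfa1 and Retnlg stood at 102 and 115 in the irradiated libraries, on 69 and 488 cells. After thinning to 1000 UMIs, 10.5%, 7.33%, 15.3% and 14.2% of neutrophil lineage cells held an Alas1 UMI, against 0.243%, 0.458%, 0.188% and 0.969% of erythroid cells.

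**Figure D4:**
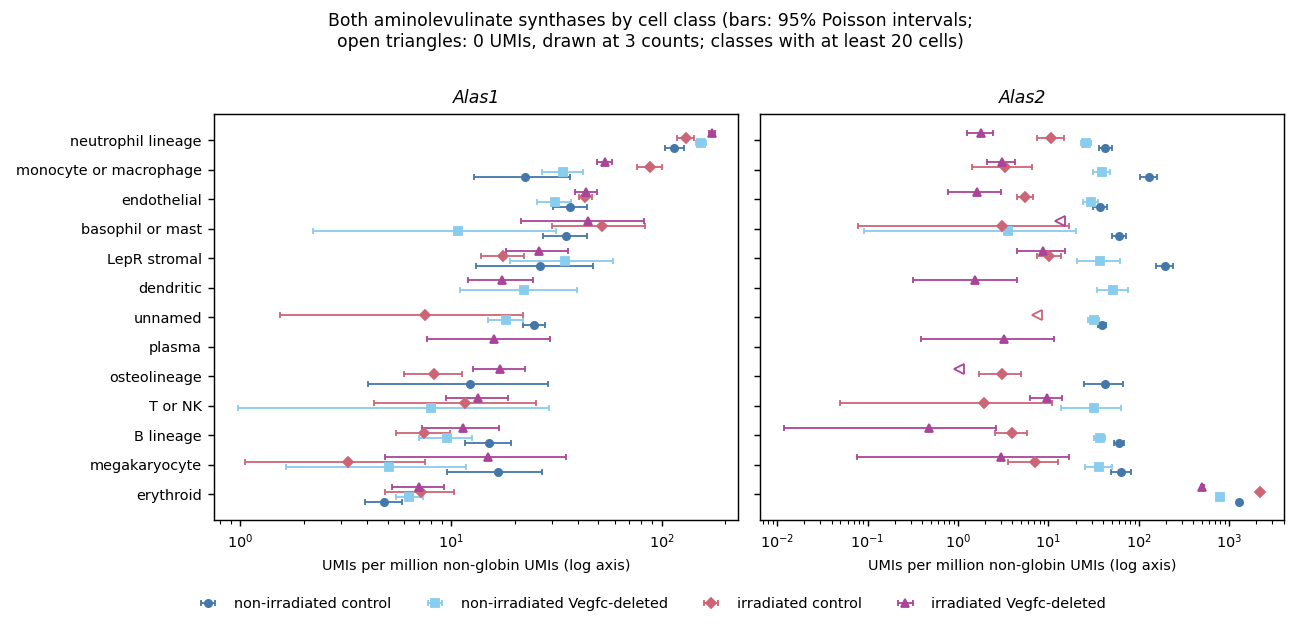
Level of Alas1 and Alas2 (UMIs per 1000000 non-globin UMIs, log axes) by cell class, 1 point per library with its 95% Poisson interval, for classes with at least 20 cells. Alas1 is highest in the neutrophil lineage in all 4 libraries, and Alas2 in erythroid cells.

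Alas2 in the other classes is set here beside the globin found in the same cells. Per 1000 globin UMIs there were 2.96, 2.76, 3.16 and 2.46 Alas2 UMIs in erythroid cells, 3.76, 2.91, 4.09 and 3.39 in the neutrophil lineage, and 5.1, 3.84, 5.55 and 6.51 in endothelial cells. The median globin share of other cells was 0.556%, 0.307%, 0.0509% and 0.0159%, and their Alas2 levels followed the same order. In the pooled other cells, Alas1 was the member whose level was not lower after irradiation in either genotype, at 36.1, 59.6, 38.1 and 91.8. The makeup of those cells differed between libraries, so these sums carry the share of the neutrophil lineage with them.

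Over the 12 values of 3 stages and 4 libraries, Alas2 and Fech ran closest to each other among the members (Pearson r of 0.995 on log2 levels plus 10). The stages share cells' ordering by globin and the libraries share depth, so this is a description. The 5 genes most like Alas2 among 4765 were Sox6, an erythroid transcription factor, Cd24a, Gm867, Fbxo7 and E2f2. Those most like Fech were Ranbp10, Nxpe2, Dnajb2, Brpf3 and Yod1, and those most like Ppox began with Grina. For Alad these began with Hemgn and Mgst3, for Urod with Prdx2, for Uros with Carhsp1, and for Cpox with Hipk2 and Zfpm1, a Gata1 partner. Alas1 apart, Cpox was least like the others, with r of 0.85 to Urod and 0.89 to Uros. Alas1 ran opposite to the rest, with r of -0.85 to -0.91, and the genes most like it began with Gnl3l and Rbbp6. These Alas1 values rest on few molecules. Ranked genes had at least 100 erythroid UMIs in every library, but Alas1 had 30 and 50 in the irradiated ones. Its sums were 1 UMI in each irradiated mid library and 2 to 13 in late cells, and its levels of 1.35 to 13.3 lay near the 10 added.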

How the data were processed

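Single cells were measured with the 10x Genomics Chromium 3' kit v3.1 in 4 libraries, per the labels' protocols. The deposited matrices hold UMI counts per gene and barcode, not normalized. Cell Ranger 2.1.1 and mm10 are given in the submitters' processing notes, whereas the file headers name software version 3.1.0. Barcodes with under 500 genes or over 10% mitochondrial UMIs and Scrublet doublets (0.8% per 1000 barcodes) were left out. Cells were clustered with scanpy 1.11.5 and Leiden at a resolution of 1, without members and globins, and clusters were named from 14 marker lists. Cluster 17, named erythroid, had a median depth of 0.282 times its libraries' but Car1 and Klf1 among its leading genes. UMIs were summed per stage and library and divided by the UMIs of all genes but 10 globins. edgeR 4.0.16 gave the TMM factors of an alternative scaling. Named supply genes are up to 3 highest and 3 lowest of each list, and like genes the 5 with the highest Pearson r. Members and lists were chosen with earlier results of these data known. Some genes of these lists are not reported here by name.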

Additional observations from a re-analysis of the deposited data

Results flagged for a closer look

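Fech in late erythroid cells had irradiated-over-non-irradiated log2 ratios of opposite sign in the genotypes, 0.24 (0.18 to 0.31) in control and -0.20 (-0.29 to -0.11) in Vegfc-deleted mice. With 1 library per group the difference between them was not tested.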

How the results depend on the processing

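Counts of members stayed within 1.5 times the reported count in 197 of 214 recalculations over 14 alternatives. Many reported counts were 0, and a 0 that stayed 0 was scored as within the limit. Each count above 0 between stages or after irradiation moved in at least 1 alternative. With UMIs per cell, chosen after seeing the data, 1 was higher in mid over early, 0 higher and 1 lower in late over mid, and 2 and 4 lower after irradiation in early and mid cells. Thinned cells, of which fewer members reached 30 UMIs, gave 4 higher in mid over early and 2 and 0 lower in irradiated early and mid cells. All UMIs as denominator gave 1 higher in late over mid. Erythroid cells taken by markers gave 1 higher and 0 lower in irradiated mid cells, and 4 higher in early cells of Vegfc-deleted mice. No share of all genes was counted for cells taken by markers. The same weights for the globin ranges of both libraries gave 0 lower in mid and 0 higher in late irradiated cells, with Cpox in late cells at 0.67 and 0.57. TMM scaling (Cpox 0.51 and 0.41) and cluster 2 alone gave 0 higher in late irradiated cells, and cluster 21 alone gave 2 lower in early ones. TMM factors shifted all log2 ratios by 0.34 to 0.40 in late over mid, by up to 0.27 in mid over early, by up to 0.68 in erythroid over other and by -0.10 to -0.37 after irradiation. The turns of sign listed here are those of ratios past 1.5-fold in the main setting, and smaller ratios turned too. In the non-irradiated control, for example, the Cpox level was 1476 in mid and 1497 in late cells. Its UMIs per cell were 20.7 and 4.23. Signs turned per cell in mid over early for the non-irradiated Vegfc-deleted library (Alad -0.16, Urod -0.0646, Cpox -0.21), irradiated control (Alad -0.0713, Cpox -0.11) and irradiated Vegfc-deleted (Alad -0.61, Uros -0.73, Urod -0.72, Cpox -1.05). In late over mid they turned per cell in the non-irradiated control (Alas2 -0.0521, Urod -1.37, Ppox -1.08, Fech -0.74) and the non-irradiated Vegfc-deleted library (Uros -1.59, Urod -1.12, Ppox -0.81, Fech -0.49). The same held for irradiated control (Urod -0.0433, Ppox -0.15) and irradiated Vegfc-deleted (Ppox -0.0263), and for irradiated over non-irradiated mid cells of controls (Alas2 -0.24, Cpox -0.24, Fech -0.26). All UMIs as denominator turned late over mid for Urod (-0.20, -0.12 and -0.0267 in the first 3 libraries), Uros in the second (-0.59) and Ppox in the third (-0.13). Erythroid cells by markers turned Alas1, in mid over early of the irradiated Vegfc-deleted library (0.44), after irradiation in early controls (-0.19), and after irradiation in mid cells (0.89 and 1.51). Thinning turned Fech in irradiated mid cells, Vegfc-deleted over control (0.0255). After irradiation, cluster 21 alone turned Alas2 in early cells of Vegfc-deleted mice (0.11), and cluster 2 alone turned Cpox in late cells of controls (-0.02). The cause of these turns was not tested. No paired analysis of irradiation or genotype was possible because each group is 1 library. Contrasts between stages were made within each of the 4 libraries and were not tested. Depth limits Alas1, with 1 to 13 UMIs in 6 of its 8 mid and late sums.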
